A study of Mus musculus with 2 samples.

Results

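The genes described here are 33 interferon-stimulated genes of the mouse, taken by symbol from the feature list of 1 single-cell RNA library of splenic natural killer (NK) cells. Of these genes, 32 had a row among the 32285 genes counted; Mx1 was not analysed here. The library was made from spleens of wild-type mice for which the labels give no treatment, and its NK cells had been enriched by removal of other cell types (negative selection). The labels give neither age, sex nor strain. The study concerns Kir6.1, a subunit of an ATP-sensitive potassium channel in NK cells, and lists 2 libraries, of which 1 was used; the other was not analysed here. Lipid tags, which mark cells before pooling, marked 3 sets of cells in the library. The labels say that cells of different mice were pooled by tag but not which tag is which mouse, so p-values below measure only the spread between tags, which may be technical.

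Interferons are secreted proteins that bind receptors on nearly all cells. Type I interferons act through the receptor chains IFNAR1 and IFNAR2 and the kinases JAK1 and TYK2, which activate transcription factors, STAT2 among them. STAT2 acts with IRF9 in a complex that binds the interferon-stimulated response element (ISRE) in the promoters of its targets. Interferon gamma, made by NK cells among others, acts through IFNGR1 and IFNGR2, and its targets carry another element (GAS). The targets include sensors of viral nucleic acid and proteins that block viral replication, and many are transcribed at some level without infection. In NK cells type I interferon is known to promote cytotoxicity and survival.

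A barcode was kept with 500 to 6000 genes detected, at most 10% mitochondrial transcripts and exactly 1 tag, which left 11696 cells (3590, 4213 and 3893 for tags 1, 2 and 3) with medians of 4026.5, 4433 and 4125 unique molecular identifiers (UMIs, counted transcripts). Clusters were formed without the genes studied and named from markers: 7953 NK-like cells, 428 ILC1-like cells (type 1 innate lymphoid cells), 154 T cell-like, 712 B cell-like, 557 conventional dendritic cell-like, 79 monocyte or macrophage-like and 147 mural or fibroblast-like cells. Levels are CPM (UMIs of a gene scaled to a fixed total per sum), summed over the cells of a class in each tag. Since each transcript is counted once at its 3′ end, CPM were compared between genes with no division by length. Gzma, a granzyme of cytotoxic lymphocytes, reached 9374 CPM in NK-like cells but also 517 to 1029 CPM in the other 6 classes, so RNA of NK cells was counted with other cells too. Endothelial Kdr was at 67.1 CPM in the mural or fibroblast-like class. About 15.3% of the cells kept would be expected to be pairs of cells with the same tag, and no caller was run to remove them.

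Promoter sequences from RefSeq (build GRCm38.p6, 250 bases before to 50 after a transcript start) were found for 25 of the 32 genes; Ifi204, Ifi27l2a, Oas2, Parp14, Rtp4, Usp18 and Zbp1 had no entry. An ISRE core, GAAANNGAAA or its reverse complement TTTCNNTTTC, was present in 15 of the 25 genes (60.0%) and in 3.99% of all 27025 genes with an entry. The GAS core TTCNNNGAA, which reads the same on both strands, was present in 7 of 25 (28.0%) and in 9.55% of all genes. In 3 genes both were found, and in 1 of these they overlapped. A match is only these letters in this window. Shown first are the 6 genes with most NK-like UMIs among those with an ISRE core, then 3 genes that the results on single cells turn on (chosen after their values were seen), and last Irf1, which has only a GAS core. Each run gives the 140 bases before the start, or 30 bases around a match after the start, 5′ to 3′ along the gene's strand, with the core in capitals.
Ifi203, chr1:173942493-173942632, minus strand: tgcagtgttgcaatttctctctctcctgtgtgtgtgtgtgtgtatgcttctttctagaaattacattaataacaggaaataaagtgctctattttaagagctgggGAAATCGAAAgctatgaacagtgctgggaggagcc
Trim30a, chr7:104465194-104465333, minus strand: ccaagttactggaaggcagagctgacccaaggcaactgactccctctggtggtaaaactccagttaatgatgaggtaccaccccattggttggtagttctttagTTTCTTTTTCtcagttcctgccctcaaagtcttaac
Ddx58, chr4:40239804-40239833, minus strand: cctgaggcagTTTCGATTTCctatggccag
Bst2, chr8:71537473-71537612, minus strand: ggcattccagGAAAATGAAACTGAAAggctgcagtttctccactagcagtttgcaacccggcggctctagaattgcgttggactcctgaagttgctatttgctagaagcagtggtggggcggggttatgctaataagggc
Ifi208, chr1:173673525-173673664, plus strand: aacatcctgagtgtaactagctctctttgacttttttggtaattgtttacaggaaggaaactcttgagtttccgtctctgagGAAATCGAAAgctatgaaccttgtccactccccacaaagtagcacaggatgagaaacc
Eif2ak2, chr17:78882535-78882564, minus strand: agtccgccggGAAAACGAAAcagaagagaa
Isg15, chr4:156200819-156200958, minus strand: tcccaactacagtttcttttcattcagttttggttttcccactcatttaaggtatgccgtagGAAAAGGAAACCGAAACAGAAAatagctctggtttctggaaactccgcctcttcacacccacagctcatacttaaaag
Ifit1, chr19:34640749-34640888, plus strand: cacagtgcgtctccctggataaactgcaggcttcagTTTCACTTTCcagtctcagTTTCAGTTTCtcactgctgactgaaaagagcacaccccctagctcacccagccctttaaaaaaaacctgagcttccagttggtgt
Rsad2, chr12:26456453-26456592, minus strand: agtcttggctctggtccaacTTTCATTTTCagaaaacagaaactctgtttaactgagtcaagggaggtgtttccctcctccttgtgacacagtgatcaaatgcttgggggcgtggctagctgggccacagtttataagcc
Irf1, chr11:53769874-53770013, plus strand: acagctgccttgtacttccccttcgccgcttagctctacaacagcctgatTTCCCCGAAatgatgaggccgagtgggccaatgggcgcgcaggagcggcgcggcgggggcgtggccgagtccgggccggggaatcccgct

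The letters GAAATCGAAA stood in the promoters of Ifi203, Ifi208 and Ifi213, which lie with Ifi204 in the Ifi200 gene cluster on chromosome 1 (173566283 to 173942672, GENCODE on the same build). In Isg15 3 cores overlapped, and in Bst2 2 did. The 3 Ifit genes lie side by side on chromosome 19 (34550694 to 34650009) and the Oas genes on chromosome 5 (114896936 to 120907521). Reads could be split or lost between such related genes, and Ifi203 also overlaps Mndal, Irf7 overlaps Phrf1, Irf9 overlaps Rnf31, Irf1 overlaps Gm17334 and Rtp4 overlaps Masp1. Levels of these genes are uncertain to that extent.

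In NK-like cells the 32 genes together gave 1073, 1055 and 1089 CPM in the 3 tags (1072 ± 17.4, SD, n = 3 tags), so the summed level hardly moved between tags. The level was uneven between genes: 3 stood above 100 CPM, 16 between 10 and 100 and 13 below 10, of which 12 were below 5. Among the transcription factors, Irf1, a target of interferon gamma, was highest with 185, 161 and 160 CPM. Irf7, the factor that amplifies type I interferon production, had 49.0, 29.7 and 30.6 CPM, higher in tag 1 than in the other tags. Irf9 and Stat2, which act together at the ISRE, were lower, Irf9 at 27.4 ± 2.24 CPM and Stat2 at 18.8 ± 3.17 CPM (SD, n = 3 tags), and their values differed by more than that spread. Isg15, the ubiquitin-like modifier, had 26.5, 16.4 and 25.6 CPM, lowest in tag 2, and Usp18, the protease that removes it and dampens the receptor, 8.92 ± 1.35 CPM.

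The classical antiviral effectors were low in NK-like cells. Of the IFIT proteins, which bind viral RNA, Ifit2 had 14.7 ± 1.28 CPM (SD, n = 3 tags), Ifit3 3.52 ± 1.04 and Ifit1 2.67 ± 0.973. The 5 members from the oligoadenylate synthetase family, known for starting RNA decay by RNase L, were at or under 4.12 CPM. Of these, Oas2 had 2 UMIs in a single cell. Other genes of the family were not among the members. Rsad2 (viperin, which makes a chain-terminating nucleotide) had 40 UMIs in 26 of 7953 cells, at 0.927, 0.594 and 1.80 CPM. Ifi27l2a, Isg20 and Ifi44 had 2.36, 2.11 and 1.16 CPM. No order among these low genes is given.

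Sensors and the Ifi200 family carried most of the rest. Ddx58, the sensor RIG-I, had 60.9, 65.0 and 61.4 CPM and Zbp1, a sensor of Z-form nucleic acid, 46.4, 45.6 and 45.2, both tight across tags; the RNA-dependent kinase Eif2ak2 had 27.9 ± 2.74 CPM and the sensor Ifih1 10.4 ± 0.543 (SD, n = 3 tags). Ifi203, of a family that includes DNA sensors, was the highest gene of all with about the same level in all tags (249, 253 and 246 CPM), while Ifi208 had 26.5, 28.8 and 35.2, Ifi213 20.2 ± 0.803 and Ifi204 3.79 ± 0.917 CPM. Among other effectors Trim30a, a ubiquitin ligase, had 96.1, 105 and 107 CPM, Parp14 56.1, 68.6 and 75.7, Ifi35 50.3 ± 2.25, Bst2 (tetherin, which holds budding virus at the membrane) 34.7 ± 4.67, Xaf1 31.3, 33.2 and 34.6 and Rtp4 10.6, 13.3 and 12.2. Irf1 and Trim30a did not overlap Ifi203 or each other in any tag, whereas Irf7, Bst2, Xaf1 and Ifi208 lay within one another's spread.

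**Figure D1:**
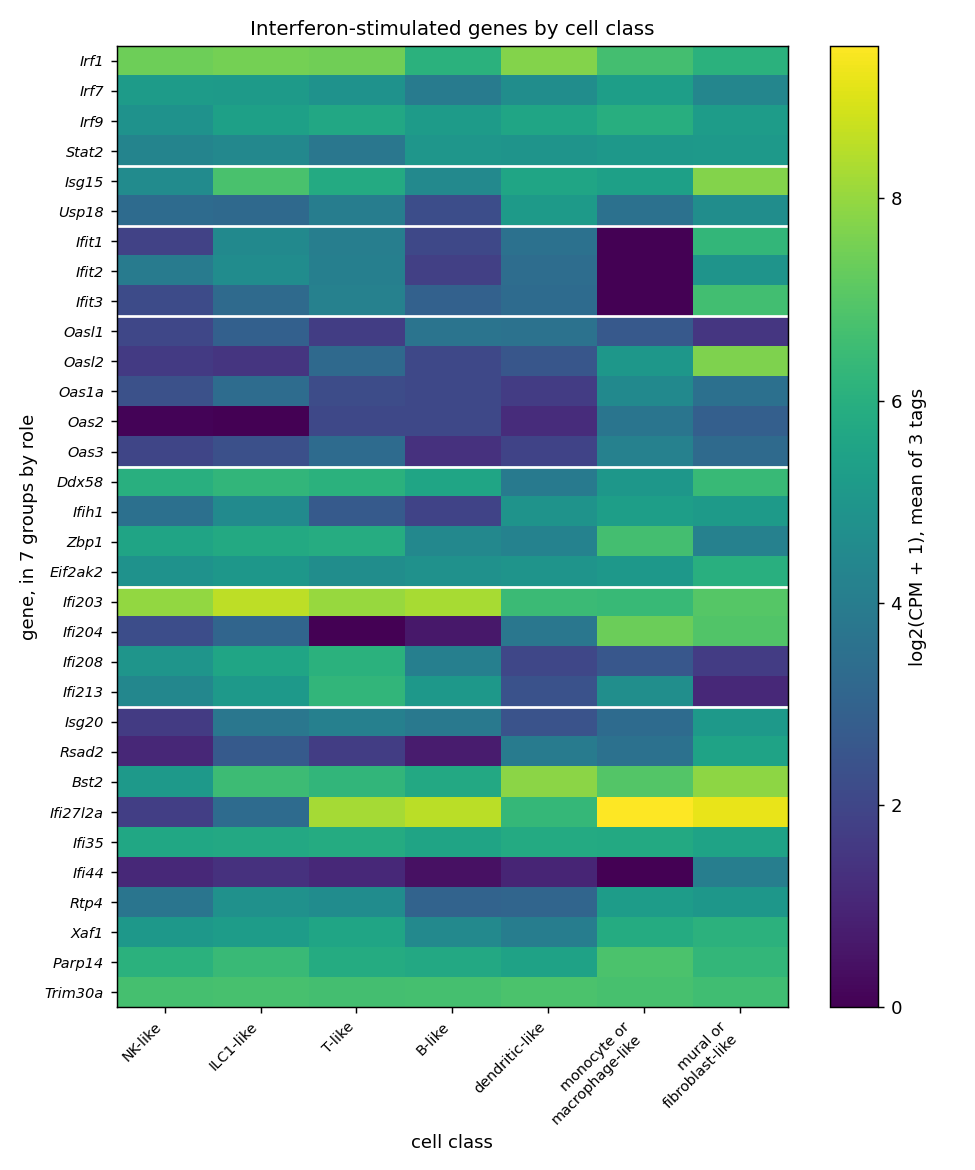
Mean level over 3 tags of each measured interferon-stimulated gene (rows, in groups by role) in 7 cell classes (columns), as colour on a log2(CPM + 1) scale. Ifi203 and Irf1 are bright in the NK-like column, Ifi27l2a is dark there and brightest in monocyte or macrophage-like cells, and the 3 Ifit genes are at 0 in that class.

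Detection per cell followed these levels. After each cell was thinned to 2500 UMIs, which left out 648 NK-like cells that were shallower, Ifi203 was seen in 44.7% of the other 7305, Irf1 in 32.5%, Trim30a in 21.8%, Ddx58 in 14.2%, Isg15 in 4.38% (exact binomial 95% interval 3.92 to 4.88), Ifit1 in 0.52% and Rsad2 in 0.205% (0.115 to 0.338). Without thinning, over all 7953 cells, the same shares were 61.6% for Ifi203, 48.4% for Irf1, 34.2% for Trim30a, 23.5% for Ddx58, 7.68% for Isg15, 0.956% for Ifit1 and 0.327% for Rsad2. Intervals cover counting error only. The RNA of other cells in a droplet was not removed from these shares.

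Transcripts of type I and type III interferons were nearly absent from the 7 classes, while Ifng, the gene of interferon gamma, was present. Cells outside these classes were not counted for the interferon genes. Of 21 interferon genes counted, 18 had no UMI in any of the 7 classes. Ifng had 127, 100.2 and 111 CPM in NK-like cells and 215, 124 and 167 in ILC1-like cells. Ifnb1 had 2 UMIs in dendritic cell-like cells and Ifnk 1 UMI in B cell-like cells. Its 0 UMIs in NK-like cells allow Ifnb1 a level of up to 0.0787 CPM there (3 counts). The receptor chains were present: NK-like cells had 72.4 CPM of Ifnar1, 118 of Ifnar2 and 843 of Ifngr1, with Jak1 at 1203 and Tyk2 at 81.3 CPM. Ifngr2, the second chain of the interferon gamma receptor, was the exception with 0.506, 0.659 and 0.451 CPM. It had 53.9 CPM in B cell-like, 60.4 in T cell-like and 105 in dendritic cell-like cells, a log2 difference from NK-like cells of 6.66, 6.69 and 7.70 (adjusted p = 1.3e-17, 3.5e-12 and 8.6e-22). Of 24 receptor and signalling genes tested, 8 were higher and 10 lower in B cell-like than in NK-like cells (17.2% and 19.1% of all genes), 3 and 5 in T cell-like (8.15% and 9.65%) and 9 and 7 in ILC1-like cells (8.59% and 8%). In dendritic cell-like cells 11 and 7 were (28.4% and 28.1%), in monocyte or macrophage-like 9 and 6 (15.3% and 15.9%) and in mural or fibroblast-like 5 and 13 (30.3% and 24%). These calls come from the fit described next.

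The 6 other classes were then compared with NK-like cells in 1 fit over the sums per tag (edgeR quasi-likelihood test, tag as a block, Benjamini-Hochberg adjustment over 10853 genes, threshold 0.05), in which 31 of the 32 genes passed the filter on low counts. That filter keeps a gene that is high in 1 class alone. All 6 comparisons share the NK-like sums and are not independent. The clusters were formed without the members, but cells were sorted into classes by the same transcriptomes. Summed over the 32 genes, the 7 classes had their lowest mean in NK-like cells: 1209 ± 110 CPM in dendritic cell-like, 1330 ± 50.7 in B cell-like, 1550 ± 103 in ILC1-like, 1648 ± 191 in T cell-like, 2094 ± 231 in monocyte or macrophage-like and 2505 ± 83.9 in mural or fibroblast-like cells (SD, n = 3 tags). The ILC1-like and T cell-like values differed by less than their spread. This order rested in part on Ifi27l2a: without it, a sum chosen after the data were seen, B cell-like cells were lowest at 959.9 ± 36.9 CPM, below the 1069.8 ± 16.6 of NK-like cells, and dendritic cell-like cells had 1129.8 ± 131. Ifi27l2a, of the small hydrophobic ISG12 family, was the gene that separated the classes most. It had 2.11, 1.71 and 3.25 CPM in NK-like cells, 382, 325 and 404 in B cell-like, 247, 315 and 333 in T cell-like, 57.1, 102 and 77.7 in dendritic cell-like, 621, 570 and 991 in monocyte or macrophage-like and 399, 628 and 717 in mural or fibroblast-like cells. No tag of these 5 classes came near an NK-like value, and the log2 differences ran from 5.35 (SE 0.27) in dendritic to 8.35 (SE 0.29) in monocyte or macrophage-like cells.

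**Figure D2:**
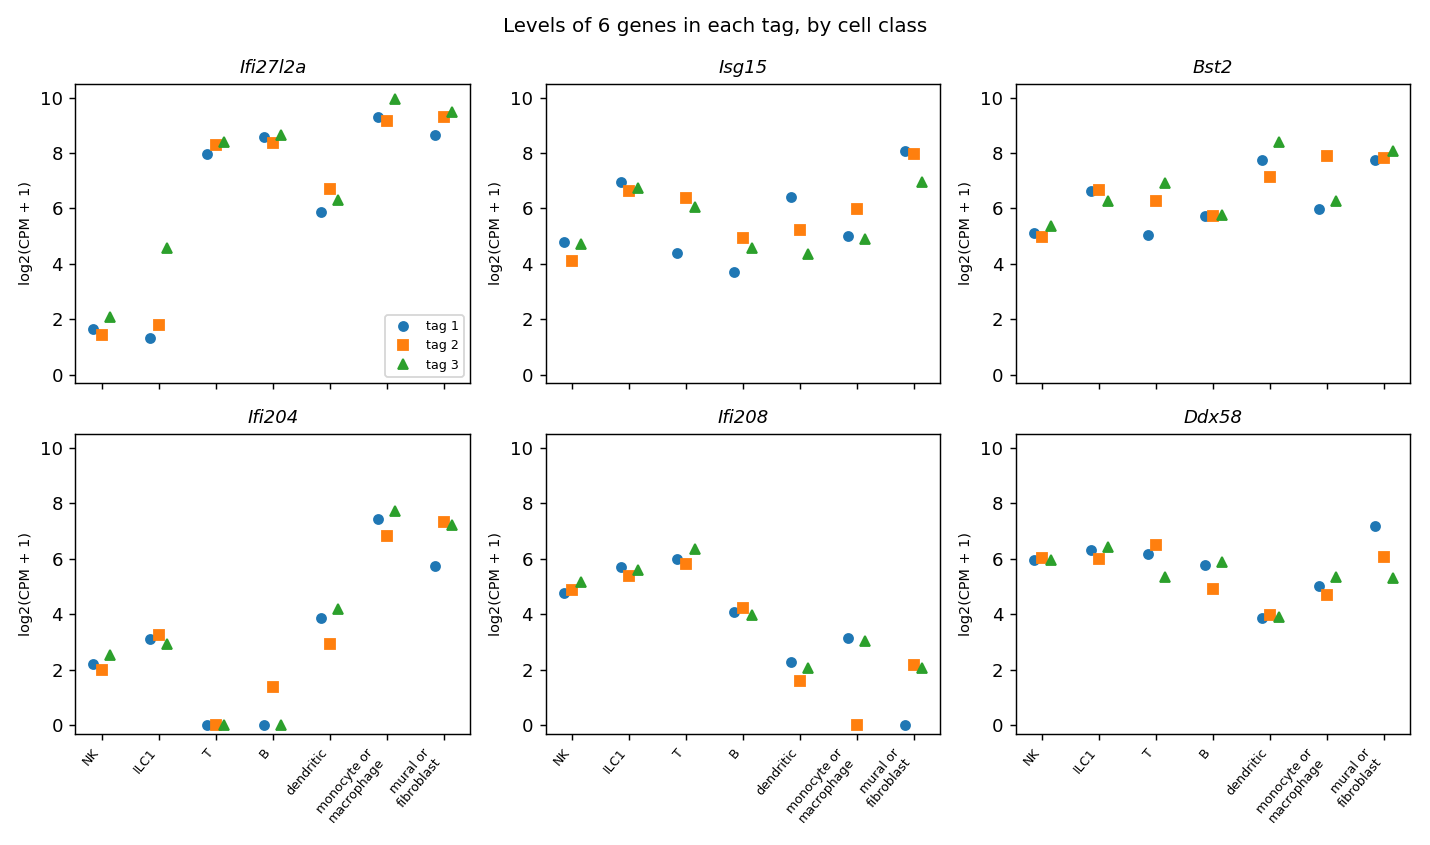
Level of 6 genes in each tag (points) and cell class (x axis), on a log2(CPM + 1) scale. Ifi27l2a is lowest in NK-like and ILC1-like cells, Isg15 is higher in ILC1-like than in NK-like cells in every tag, and Ddx58 and Ifi208 are lower in dendritic cell-like cells in every tag.

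ILC1-like cells, the nearest relatives of NK cells in the library, had higher Isg15: 124, 98.2 and 107 CPM, above every NK-like value, with a log2 difference of 2.25 (SE 0.27, edgeR adjusted p = 6.9e-08). In all 11 of 31 members were higher and 0 lower, where 8.59% of all genes tested were higher and 8% lower. The median log2 difference was 0.58 for the members and -0.05 over all genes. Ifit1 had 28.8, 24.6 and 11.5 CPM (log2 difference 2.96, SE 0.52, adjusted p = 6.9e-05), but 1 cell of tag 2 held 25.5% of its UMIs in the class. Isg20, an exonuclease of viral RNA, had 9.08, 20.9 and 7.69 CPM (log2 difference 2.50, SE 0.44), with 35.5% of UMIs in 1 cell. Bst2 had 96.9, 101 and 76.0 CPM (log2 difference 1.35, SE 0.23, adjusted p = 4.4e-05). Ifi27l2a, at 1.51, 2.46 and 23.1 CPM, passed only through tag 3, and without that tag its log2 difference was 0.09 (adjusted p = 0.98). Ifi203, Ifi208 and Ifi213 of the Ifi200 family, Rtp4, Ifih1 and Irf9 were higher by 0.56 to 1.11 on the log2 scale. Fewer members passed in each fit that left out a tag: 6 without tag 1, 6 without tag 2 and 7 without tag 3, with Irf9, Ifi208 and Ifi213 lost each time. Ifih1 and Rtp4 were lost without tag 1 or 3, and Isg20 and Ifi203 without tag 2. Settings other than tags mattered too. Irf9, Ifi208 and Ifi213 were lost without the filter on low counts, and Rtp4 with DESeq2 (adjusted p = 0.097). Ifih1 and Ifi213 were lost with all clusters scored as NK cells, and Ifi27l2a and Ifi213 without the deepest 10% of cells. Of 66 other interferon-stimulated genes tested, 24 were higher and 5 lower, led by Ifitm1 (42.3 against 1.00 CPM) and Ly6a (33.8 against 1.93 CPM). Cxcl10, a chemokine induced by interferon gamma, had 58.7 ± 28.4 against 5.11 ± 2.37 CPM.

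T cell-like cells had 11 members higher and 0 lower, against 8.15% and 9.65% of all genes, with a median log2 difference of 0.61 for the members and -0.15 over all genes. Besides Ifi27l2a (log2 difference 7.14, SE 0.29), Ifi213 had 59.7, 75.4 and 88.8 CPM (log2 difference 2.12, SE 0.25, edgeR adjusted p = 6.1e-08) and Ifi208 63.7, 54.8 and 82.0 CPM (log2 difference 1.40, SE 0.22, adjusted p = 8.1e-06). Both lay above every NK-like tag. Isg20, Bst2 and Irf9 were also higher, by 3.16, 1.43 and 0.98. The class held 154 cells, and several members were uneven over its tags: Ifit1 had 23.9, 0 and 23.9 CPM, Oasl2 11.9, 0 and 13.7, and Isg15 19.9, 82.3 and 64.9. Without tag 3, 5 members were higher and Isg15, Ifit1, Ifit3, Oasl2, Bst2 and Rtp4 no longer passed. Rtp4 was also lost with DESeq2 (adjusted p = 0.13), without the tag block and with all clusters scored as NK cells. Ifi204 had 0 UMIs in the class, at least 1.21-fold lower than in NK-like cells (3 counts over the class); it did not pass the test.

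Between B cell-like and NK-like cells, members were called in both directions, as were genes in general, so such a split is not particular to the members. Of 31 members, 8 were higher and 7 lower, where 17.2% and 19.1% of all genes were, and the median log2 difference was 0.00 for the members and -0.07 over all genes. Higher, besides Ifi27l2a (log2 difference 7.48, SE 0.27, edgeR adjusted p = 5.9e-22), were Isg20 (16.0, 9.76 and 14.2 CPM, log2 difference 2.89, SE 0.39) and Oasl1, a member of the Oas family that restrains Irf7 translation (10.0, 8.13 and 16.7 CPM, log2 difference 2.17, SE 0.40). Lower were Irf1, with 61.2, 81.3 and 56.4 CPM (log2 difference -1.21, SE 0.18, adjusted p = 1.3e-06), and Irf7, with 20.1, 9.76 and 13.7 CPM (log2 difference -1.11, SE 0.23). Ifit2 (log2 difference -2.26) and Ifih1 (-1.89) were lower too, and Ifi204 had 1 UMI, a ratio to NK-like cells of 0.074 (exact 95% counting interval 0.00186 to 0.419). Stat2, Ifi213, Bst2, Irf9 and Ifi203 were higher by 0.45 to 0.90, and Zbp1 and Ifi208 lower, with log2 differences of -0.87 and -0.81. Irf9 no longer passed when any one tag was left out, and Ifi203 was lost without tag 2. Bst2 was lost with DESeq2 (adjusted p = 0.082), with all clusters scored as NK cells and without tag 1. Without tag 3, which held 392 of the 712 cells, 5 members were higher and 4 lower, with Irf9, Ifih1, Ifi203, Ifi204 and Ifi208 lost and Oasl1 under the filter on low counts. Among pathway genes Irf4, a factor of B cell and plasma cell differentiation, had 161 against 0.879 CPM and Tlr7, an endosomal RNA sensor, 26.6 against 0.248 CPM.

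In conventional dendritic cell-like cells 17 members were higher and 6 lower, against 28.4% and 28.1% of all genes, and the medians were 0.37 and -0.06. Bst2 had 215, 140 and 339 CPM (log2 difference 2.97, SE 0.19, edgeR adjusted p = 4.4e-15) and Usp18 35.7, 38.7 and 31.1 (log2 difference 2.25, SE 0.24, adjusted p = 6.9e-10), both above every NK-like tag. The sensors split: Ddx58 was lower, with 13.6, 14.9 and 13.9 CPM (log2 difference -1.86, SE 0.21, adjusted p = 3.2e-09), and Ifih1 higher, with 35.7, 26.3 and 24.1 CPM (log2 difference 1.72, SE 0.24). In the Ifi200 family Ifi208 had 3.89, 2.06 and 3.22 CPM (log2 difference -3.04, SE 0.27) and Ifi213 3.25, 3.09 and 6.43 (log2 difference -1.96, SE 0.30), both lower, while Ifi204, at 13.6, 6.70 and 17.1 CPM, was higher (log2 difference 1.96, SE 0.32). Oasl1 was higher by 2.13. For several classical effectors the highest cell, in tag 1 each time, held much of the class. It held 31 of 51 UMIs of Ifit1 (60.8%), 32 of 43 of Ifit3 (74.4%) and 31 of 72 of Rsad2 (43.1%). Whether it was the same cell for each gene is not given here, and Rsad2 still passed without tag 1. Without tag 1 the log2 differences of Ifit1 and Ifit3 were -0.24 and -0.26, Isg20, Ifi35 and Trim30a also no longer passed, Oasl1 fell under the filter on low counts, and 11 members were higher. Ifit3 was also lost with DESeq2 (adjusted p = 0.11), Isg20 with all clusters scored as NK cells, and Ifi35 and Trim30a without the filter on low counts. Isg15, at 85.0, 36.1 and 19.3 CPM, was likewise highest in tag 1.

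The 3 clusters joined in this class differed, given here as a description. A cluster led by Fabp5 and Tbc1d4 had 379 CPM of Bst2 and 146 of Ifi27l2a, with 121 of Irf1. A cluster led by Il12b, Ccr7 and Fscn1, genes of matured dendritic cells, had 772 CPM of Irf1, 66.8 of Usp18 and 54.2 of Oasl1, but 0.79 of Ifi27l2a. A cluster led by Cadm1, Cst3 and Cxcl9 had 97.2 CPM of Bst2 and 71.5 of Irf1. Their summed levels were 1506 ± 194, 1415 ± 32.7 and 650 ± 72.1 CPM (SD, n = 3 tags). Siglech, a marker of plasmacytoid dendritic cells, which are known as major producers of type I interferon, stood at 25.7 CPM in the whole class.

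Monocyte or macrophage-like cells, 79 in all, had 10 members higher and 4 lower, against 15.3% and 15.9% of all genes, with medians of 0.67 and -0.31. Ifi204, which is known from myeloid cells, had 173, 111 and 211 CPM (log2 difference 5.55, SE 0.33, edgeR adjusted p = 7.7e-15), far above the 2.97 to 4.78 CPM of NK-like tags. Oasl2 had 7.86, 61.9 and 25.5 CPM (log2 difference 3.73, SE 0.64) and Zbp1 70.8, 124 and 106 (log2 difference 1.22, SE 0.31). Ifit1, Ifit2 and Ifit3 all had 0 UMIs. For Ifit2 that was at least 2.34-fold lower than in NK-like cells (3 counts over the class, adjusted p = 0.016), and for Ifit1 and Ifit3 the NK-like level itself was under what 3 counts allow here. Ifi203 was lower (log2 difference -1.34, SE 0.27), and Ifi208 had 3 UMIs, a ratio of 0.208 (exact 95% counting interval 0.0428 to 0.609). Without tag 2 there were 6 higher members, with Ifih1, Isg20, Bst2 and Parp14 lost; without tag 3, which held most of the cells, 5 were higher and 1 lower, with Irf9, Ifih1, Zbp1, Isg20, Irf1, Ifit2 and Ifi208 lost and Oas1a under the filter on low counts. Irf1 was also lost with DESeq2 (adjusted p = 0.16), without the tag block and with all clusters scored as NK cells. Isg20 and Parp14 were lost without the deepest 10% of cells, and Isg20 also with only the 2 classes compared and with all clusters scored as NK cells. Ifitm3, which blocks viral entry and was not among the members, had 3398 against 3.90 CPM.

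Mural or fibroblast-like cells had the highest summed level, with 16 members higher and 4 lower against 30.3% and 24% of all genes, and medians of 1.06 and 0.02. Several effectors that were low in NK-like cells were higher here: all 3 Ifit genes and, of the 4 Oas genes tested, Oasl2 and Oas1a. Oas1a, with 11 UMIs, no longer passed without the filter on low counts (edgeR adjusted p = 0.2), nor did Ifit2 (0.061). It was also lost with only the 2 classes compared, with all clusters scored as NK cells and without tag 1. Without tag 3 it fell under the filter. Oasl1 and Oas3, with 3 and 2 UMIs, did not pass. Oasl2 had 199.7, 186 and 219 CPM (log2 difference 6.71, SE 0.28, edgeR adjusted p = 5.8e-20), Ifit1 93.2, 72.2 and 64.3 (log2 difference 5.10, SE 0.49), Ifit3 160, 82.7 and 54.7 (log2 difference 4.78, SE 0.45), and Rsad2 66.6, 50.1 and 16.1 (log2 difference 5.43, SE 0.62). Isg15 had 266, 246 and 122 CPM (log2 difference 3.34, SE 0.30), of which 1 cell of tag 2 held 24.9%. Ifi204, Ifi44 and Isg20 were higher by 5.33, 4.22 and 4.15. Lower were Ifi208 (log2 difference -3.09, SE 0.48), Irf1 (-1.10, SE 0.23), Ifi203 (-0.67, SE 0.20) and Ifi213, with 3 UMIs and a ratio of 0.119 (exact 95% counting interval 0.0245 to 0.349). Tag 1 gave 10 of these 147 cells and tag 2 102. Without tag 2 Ifi203, Ifit2, Oas1a, Rtp4 and Xaf1 no longer passed. Ifitm3 had 2182 and Ifitm2 956 CPM. With DESeq2 in place of edgeR, the median change per gene on the log2 scale was 0.118 in T cell-like cells. It was 0.177 in monocyte or macrophage-like and 0.192 in mural or fibroblast-like cells. The median log2 difference of all genes went from -0.146 to 0.0756, from -0.311 to 0.0154 and from 0.0196 to 0.241 in these classes. The log2 differences named for called members in these 3 classes are larger than these moves.

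NK cells mature from a stage with surface CD27 through one with both CD27 and CD11b (the Itgam product) to one with CD11b alone. By UMIs of Cd27 and Itgam after thinning, NK-like cells fell into 906 Cd27-only, 442 with both, 2516 Itgam-only and 3441 with neither, and a class by transcripts is not a class by surface protein. The summed level of the members was 1050 ± 32.6, 1127 ± 91.9, 1072 ± 7.97 and 1068 ± 29.0 CPM in that order (SD, n = 3 tags), within one another's spread. Between Cd27-only and Itgam-only cells 0 of 24 members tested were higher and 0 lower (edgeR; DESeq2 0 and 0), where 8.25% and 5.42% of all 10494 genes were. At an unadjusted p under 0.05 there were 2: Ifi213, with 19.6, 22.0 and 29.6 against 18.6, 19.8 and 15.4 CPM (log2 difference 0.43, SE 0.18, adjusted p = 0.10), and Bst2, with 33.2, 33.5 and 36.1 against 32.2, 22.6 and 32.0 CPM (log2 difference 0.32, SE 0.15, adjusted p = 0.15). The median log2 difference was 0.08 for the members and 0.00 over all genes. Missing the threshold does not show that the stages are alike.

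This count depended on how cells were gated. For the alternative gates and cell sets below, the share of all genes passing was not counted. Their member counts therefore cannot be set against a background. With classes taken from counts before thinning, 6 members were higher and 1 lower. With the NK-scored clusters left unnamed added, 4 were higher, including Isg15 (log2 difference 0.82) and Bst2 (0.74). Median depth before thinning was 5155 UMIs for cells with Cd27 alone against 3823 for those with Itgam alone, and its part in the result was not tested. Without the deepest cells (highest 10% by UMIs) 1 was higher, and without tag 1 it was Isg15 alone (0.77). In the steps between, Oas1a was higher in Cd27-only cells (5.34, 4.31 and 5.80 CPM) than in cells with both (1.33, 0 and 0 CPM, 1 UMI in all), a ratio of 11.5 (exact 95% counting interval 1.90 to 472; adjusted p = 0.035). That was 1 of 24, against 2.29% of all genes higher and 0.753% lower, and it was lost without any one of the 3 tags. It was also lost without the deepest 10% of cells (adjusted p = 0.077) and with classes from counts before thinning, where the log2 difference was 1.13 (adjusted p = 0.12) in place of 3.45. From cells with both to Itgam-only cells 0 members passed in either direction, against 1.94% and 0.915% of all genes; 3 did at an unadjusted p under 0.05.

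**Figure D3:**
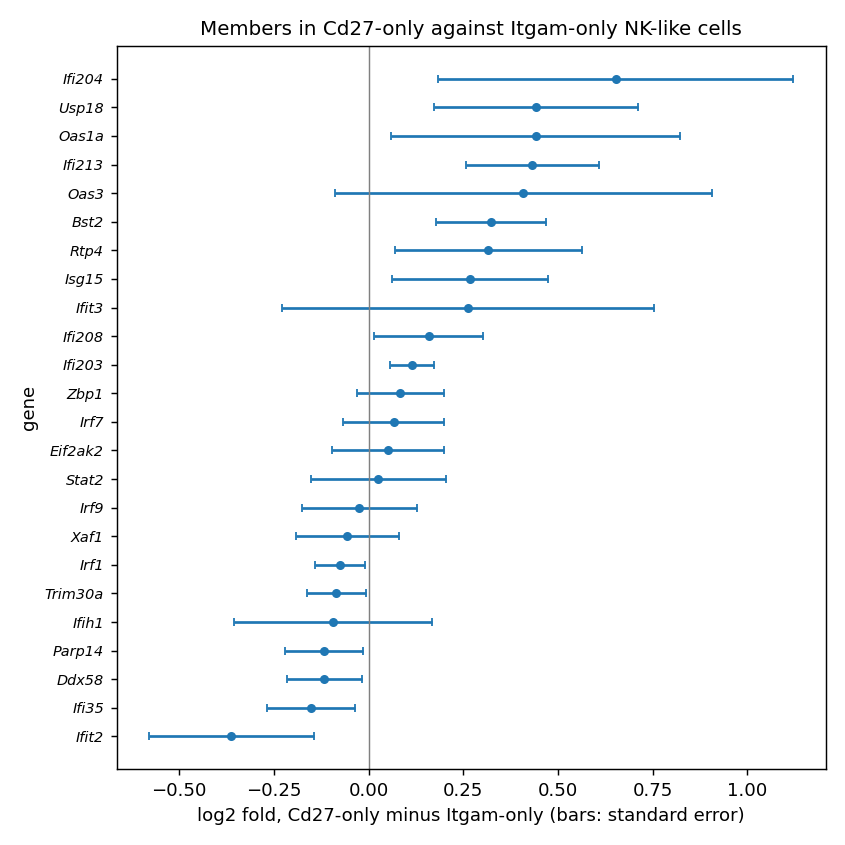
Log2 difference of each tested member (rows) between Cd27-only and Itgam-only NK-like cells, with its standard error as a bar. Points lie on both sides of 0, from Ifit2 at the bottom to Ifi204 at the top, and 0 of the 24 passed the adjusted threshold.

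Single genes of the other interferon lists passed between these stages, in shares mostly near those of all genes (8.25% higher and 5.42% lower). Of 20 receptor and signalling genes tested, 2 had a higher and 4 a lower level at the Cd27-only stage than at the Itgam-only one, and of 56 other interferon-stimulated genes 6 were higher and 2 lower. Ly6e, a membrane protein that limits coronavirus entry, had 388, 366 and 414 against 226, 221 and 252 CPM, with no overlap (log2 difference 0.80, SE 0.05, edgeR adjusted p = 4e-18). Irf8, a factor needed for NK cell expansion in viral infection, had 307, 243 and 199 against 460, 432 and 377 CPM (log2 difference -0.71, SE 0.05, adjusted p = 3.9e-15), lower in every tag. Socs3, an inhibitor of cytokine receptors, had 94.3, 33.5 and 39.3 against 51.6, 27.3 and 21.9 CPM (log2 difference 0.76, SE 0.12, adjusted p = 4.2e-06), higher within each tag although the groups overlapped. Lgals3bp was higher by 0.63. Among NK-like clusters the summed member level lay between 1036 and 1185 CPM, except for the cycling cluster led by Top2a and Mki67, at 777 ± 44.5 CPM.

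Cells were next compared one by one, since a low mean can come from few cells with much or many with little. In NK-like cells thinned to 2500 UMIs the median cell had 2 members detected, 635 of 7305 (8.69%) had none and the highest had 20. If each gene were detected independently of the others, the number per cell would follow from the shares of the single genes in the tag. At 3 or more members, 37.8 ± 0.421% of cells were found and 39.1% expected (SD over 3 tags), and at 5 or more 6.10 ± 0.552% and 5.41%, a ratio of 1.13 ± 0.079. At 8 or more, a limit chosen after the data were seen, there were 45 cells: 0.736%, 0.432% and 0.721% of the 3 tags, where 0.0411%, 0.0401% and 0.0450% were expected. The ratio was 17.9, 10.8 and 16.0 (14.9 ± 3.70, SD, n = 3 tags). It was 14.1 when the expected share was formed within clusters and 13.5 without the deepest 10% of cells. At a thinning to 1500 UMIs 21 cells were found, 159 times the expected share. Just inside the limit were 13 cells with 8 members and just outside it 23 with 7; 17 cells had 12 or more. Cells are not replicates, so no test was made.

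**Figure D4:**
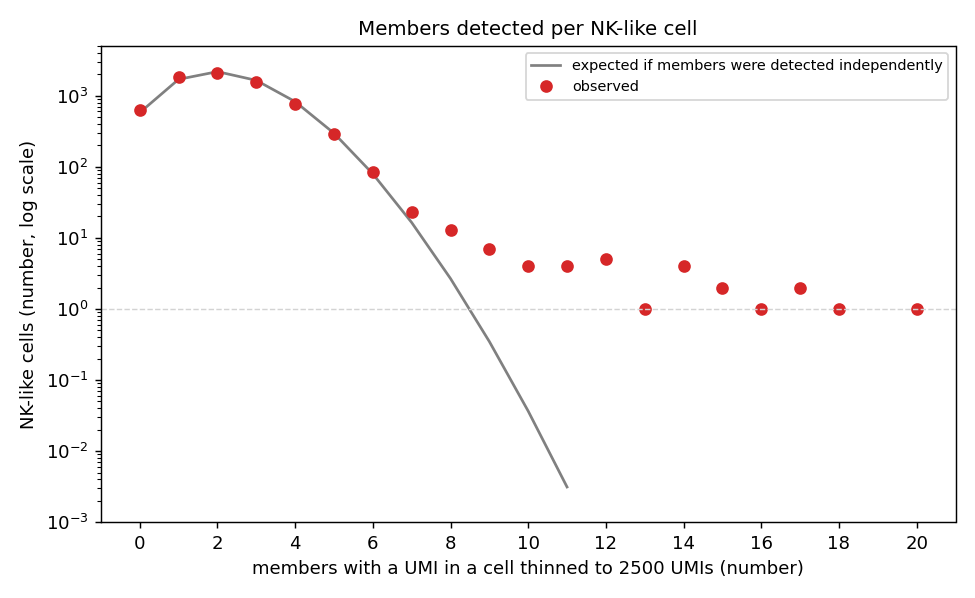
Number of NK-like cells (y axis, log scale) by the number of member genes detected after thinning to 2500 UMIs (x axis), as observed (points) and under independent detection of the genes (line). The points lie close to the line up to 6 members and above it from 7, reaching 20.

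The 45 member-rich cells did not stand out by depth. Their median was 4318 UMIs before thinning, against 4195 in cells with fewer than 5 members. They came from 7 of the 8 NK-like clusters (3 to 9 cells each). The cycling cluster had 0 among 177 thinned cells, too few to tell from the 0.616% over all NK-like cells. By maturation gate, 5 of 906 Cd27-only, 2 of 442 with both, 10 of 2516 Itgam-only and 28 of 3441 cells with neither were member-rich. In the last class tag 2 had 0.297% against 1.13% and 1.16% in tags 1 and 3. The rich cells were chosen by the members, so their member values are a description. Isg15 was detected in 60.0% of them and in 4.04% of other NK-like cells. They were 0.616% of cells and held 70.8% of the UMIs of Rsad2, 46.7% of Ifit1, 39.7% of Ifi204, 39.4% of Oasl2, 35.9% of Ifit3, 34.0% of Oas3 and 22.9% of Isg15. Of the UMIs of Irf1 they held 0.919% and of Ifi203 2.72%, so the most abundant members were spread over the NK-like cells. Ifi27l2a had 0 of its 35 UMIs in them.

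**Figure D5:**
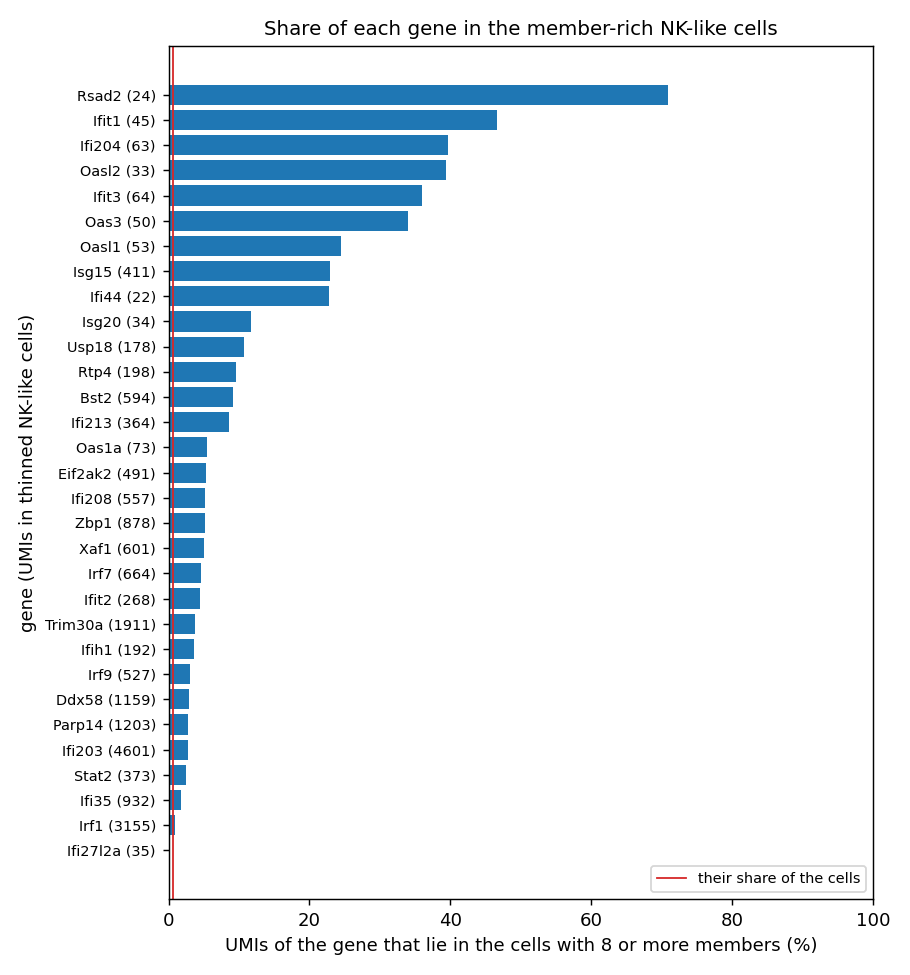
Share of each gene's UMIs in thinned NK-like cells that lies in the 45 cells with 8 or more members (bars, %), for genes with at least 20 such UMIs (number in brackets). The line marks the 0.616% of cells they make up; Rsad2 reaches 70.8% and Ifi27l2a is at 0.

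Genes that did not enter the choice of these cells were also higher in them. The 71 other interferon-stimulated genes summed to 12717, 10214 and 13117 CPM in the rich cells of the 3 tags and to 4198, 4492 and 4518 in the other cells, with no overlap (ratio 2.73). Of the 50 of them seen in at least 1% of cells, 41 (82.0%) were higher in every tag, against 8.35% of 9717 genes, and 0 were lower in every tag, against 23.0% of those genes. Ifi206 of the Ifi200 family had 451, 312 and 614 against 62.6, 71.7 and 73.7 CPM, and Nlrc5, the activator of MHC class I genes, 314, 252 and 233 against 91.1, 116 and 91.0. B2m, the light chain of MHC class I, had 2627 ± 145 against 1854 ± 41.5 CPM. Markers of NK cells were at 0.982 times and of T cells at 1.00 times (66 UMIs) the level of other NK-like cells. Those of B cells were at 0.774 times (16 UMIs) and of dendritic cells at 0.547 times (13 UMIs). In tag 1 B cell markers were higher in the rich cells, at 150 against 92.3 CPM. Those of monocytes or macrophages were at 1.54 times (17 UMIs) and of endothelium at 1.34 times (16 UMIs, higher in 1 tag only). Ratios on so few UMIs are uncertain in either direction. Mndal is among the 71 genes but overlaps Ifi203, a member that entered the choice. It stays in the sum, as 1122 of 12016 CPM in rich cells and 273 of 4403 CPM in the others (means over tags). It also stays among the 41 genes higher in every tag, so these values are not wholly apart from the choice.

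Pairs of members were counted over all thinned NK-like cells, with the 45 member-rich cells included. No count was made without those cells, so the ratios of pairs are not separate from them. Of 496 pairs, 245 had at least 5 cells expected with both genes; their median ratio of found to expected cells was 1.17, and 1.16 within clusters. The ratio was over 1 for 197 pairs, over 1 in every tag for 101 and 2 or more for 11. Isg15 and Usp18 were found together in 24 cells where 7.44 were expected (ratio 3.23), and Irf7 and Ifit3 in 16 where 5.07 were (3.16). By gene, the median ratio was 1.71 for Ifit3, 1.62 for Ifit1, 1.55 for Rtp4 and 1.30 for Isg15, and near 1 for Irf1 (1.02), Ifi35 (1.05) and Stat2 (1.05). Pairs share genes and cells and are not independent.

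Member-rich cells occurred in the other classes as well, though in numbers that allow no more than a listing. After thinning, 9 of 420 ILC1-like, 10 of 631 B cell-like, 7 of 523 dendritic cell-like, 4 of 70 monocyte or macrophage-like and 18 of 136 mural or fibroblast-like cells had 8 or more members, and all 6 among 149 T cell-like cells carried tag 3. Thinning left out 8, 81, 34, 9, 11 and 5 cells of these classes. The ratio to the expected share was 5.14 ± 1.47 in ILC1-like, 26.0 ± 8.01 in B cell-like and 4.25 ± 1.87 in mural or fibroblast-like cells (SD, n = 3 tags). Without thinning, 5.08% of NK-like, 16.1% of ILC1-like, 28.6% of T cell-like, 8.57% of B cell-like, 16.7% of dendritic cell-like, 27.8% of monocyte or macrophage-like and 56.5% of mural or fibroblast-like cells had 8 or more, at median depths from 3905 to 8069 UMIs.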

How the data were processed

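Gene counts, with the counts of 3 lipid tags in the same matrix, were deposited by the authors as a matrix of UMIs per barcode, made with Cell Ranger 7.0.0 per the file headers. The submitters' processing notes also name Seurat and the build mm10. The deposited counts are raw whole numbers. No doublet caller was run; barcodes with several tags (3567) or none (479) were left out. Tag thresholds came from Otsu's method. Clusters used scanpy 1.11.5 and leidenalg 0.10.2 (2000 variable genes, 30 components, 15 neighbours, resolution 1.0, seed 1), without the members, the interferon lists, mitochondrial and ribosomal genes. A cluster was named when its best marker score reached 0.5 with 3 markers in 10% of cells and its 10 leading genes did not belong to another type; this rule was set after the clusters were seen. Clusters of 748 shallow cells and 389 cells led by Cd3d and Cd3g scored as NK cells but stayed unnamed.

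Counts were summed per tag and class (10 cells or more) and tested with edgeR 4.0.16 (TMM, filterByExpr, quasi-likelihood, tag as a block because every tag holds every class) in R 4.3.3, checked on simulated data; DESeq2 1.42.0, no filter, no block, other thinning, gates and cluster sets, and leaving out each tag were alternatives. A replicate number here is a tag, so every class has the same 3 tags from 1 library. Members, lists and maturation gates were chosen with earlier results of these data known. In each comparison at most the 10 called members with the largest log2 difference are given in full, and at most 5 called genes of the pathway lists.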

Additional observations from a re-analysis of the deposited data

How the results depend on the processing

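Of 95 calls of a member over all comparisons, 47 were tested and passed under every setting, and 3 more were never lost but fell under the filter on low counts in some fits. Of the others, 26 were lost only when a tag was left out and 19 under another setting. Leaving out each tag in turn, the number of members higher than in NK-like cells ranged from 5 to 6 in B cell-like (main fit 8), 5 to 12 in T cell-like (11), 6 to 7 in ILC1-like (11), 11 to 16 in dendritic cell-like (17) and 5 to 9 in monocyte or macrophage-like cells (10). The number lower ranged from 4 to 7 in B cell-like and 1 to 4 in monocyte or macrophage-like cells; between Cd27-only and Itgam-only cells 0 to 1 were higher. Ifit1 and Ifit3 reversed in dendritic cell-like cells without tag 1; over the fits that left out a tag, their log2 differences ran from -0.24 to 2.70 and from -0.26 to 2.13. Without the replicate block 12 members were higher in ILC1-like and 10 in T cell-like cells and 3 lower in monocyte or macrophage-like cells, and the other counts stayed as they were. Between Cd27-only and Itgam-only cells 1 member was higher without the deepest 10% of cells, 4 with all clusters scored as NK cells, and 6 higher with 1 lower with gates before thinning. Shares of all genes were counted for the main fit only. The share with 5 or more members was 1.80 times the expected one at 1500 UMIs. The causes were not tested. With 10 to 102 mural or fibroblast-like cells per tag and 79 monocyte or macrophage-like cells, low members rest on few UMIs.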
